A study of Bos taurus with 14 samples.

Results

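The cytochrome P450 genes of families 1 to 4 encode the membrane-bound haem enzymes with which liver cells oxidise drugs, plant compounds, steroids and fatty acids. They were taken here as every gene of the deposited table whose symbol starts with CYP, a single digit from 1 to 4 and a letter. This rule found 21 of the 17469 genes. Of these, 16 reached at least 1 TPM (the share of a transcript among all, scaled for its length and the library total) in at least 7 of 14 libraries and were tested, as were 11905 genes in all. The other 5 lay under that filter. Values are gene levels in whole liver, summed over 1 to 6 listed transcripts per gene.

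The livers came from 14 Holstein bull calves slaughtered on day 90, 1 poly(A)-selected library per calf. Every calf drank milk replacer (1.75% of body weight), with starter feed on offer from day 33, a reduction of the milk to 50% on day 82 and weaning by day 89. Control calves (CON, n = 7) got nothing further, and the others (DCLI, n = 7) a daily 1 g of a postbiotic, killed Lactobacillus ingluviei CR37. DCLI is the one treated group in the design, and the libraries titled as treated were assigned to it. The question addressed is how the supplement bears on liver gene expression.

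Enzymes of these families sit in the endoplasmic reticulum, bind oxygen at a haem iron and take electrons from P450 oxidoreductase (POR) and cytochrome b5. Family 1 is known for induction through the aryl hydrocarbon receptor, and subfamilies 2B, 2C and 3A for induction through the receptors CAR (NR1I3) and PXR (NR1I2). Subfamily 4A hydroxylates fatty acids and is a classical target of PPARA. Hepatic P450 mRNAs are also known to fall during an acute phase response, which is why the level of haptoglobin mRNA is set beside them further on.

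The liver label was checked against 10 hepatocyte marker genes, all of which passed the filter. Their summed level was 90991 to 143130 TPM in CON and 71120 to 156045 TPM in DCLI. Column totals lay between 999997.1 and 1000000.3 by construction of the unit, so the sequencing depth is unknown and no counting interval can be given. In whole tissue, fewer cells of a type and less RNA per cell cannot be told apart. The labels do not say whether calves shared a pen, litter or day, and name no batch.

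The 21 genes together held 4494 to 8714 TPM per liver. Their summed level was 6385 ± 1449 TPM in CON and 7010.1 ± 1162 TPM in DCLI (mean ± SD, n = 7 each), or 0.639% and 0.701% of all TPM. The lowest sums were those of control calf 2 and DCLI calf 6. The log2 ratio of the group means was 0.13, less than the SD of 0.304 between calves on the log2 scale. It was 0.065 without control calf 2, 0.080 without control calf 4, 0.225 without control calf 7 and 0.214 without DCLI calf 6. Most of the sum came from CYP3A5, CYP2E1 and CYP1A2, which held 75.1% of it in CON (SD 2.75) and 72.0% in DCLI (SD 5.23). Mean levels then descended through CYP4A11, CYP2C19, CYP2D14 and CYP3A24, all above 200 TPM. CYP4V2, CYP1A1, CYP3A4, CYP2C18 and CYP2B6 had means between 34.9 and 89.6 TPM, and CYP2U1, CYP4A22, CYP2R1 and CYP2C87 between 2.07 and 9.69 TPM.

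**Figure D1:**
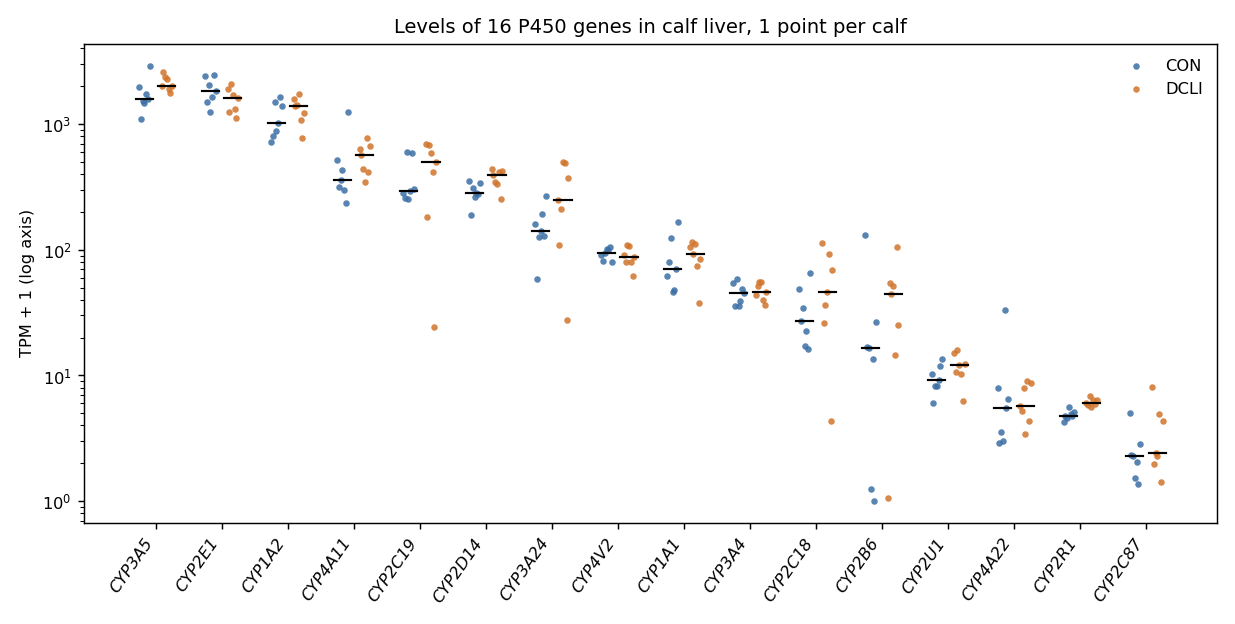
Level of the 16 tested P450 genes in each calf, as TPM + 1 on a log axis, ordered by mean level. Each point is 1 calf (CON blue, DCLI orange, n = 7 each) and the bar is the group median. The groups overlap for 15 genes, and CYP2R1 is the exception.

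No P450 gene differed between the groups past an adjusted p of 0.05 by limma, and neither did any other of the 11905 genes (percent called 0.0). At an unadjusted p under 0.05 there were 2 P450 genes, CYP2R1 and CYP2D14, both with the larger mean in DCLI. That is 2 of 16, beside 5.7% of all genes called in this direction, and 0 of 16 in the other direction, beside 3.19%. The log2 fold change (DCLI minus CON, on the log2(TPM + 1) scale) was above 0 for 12 of the 16 and below 0 for 4, while it was above 0 for 48.8% of all genes. Its median was 0.30 over the 16 genes and -0.01 over all genes tested. It ran from -0.25 for CYP2E1 to 1.18 for CYP2B6. When limma weighted the libraries by their estimated quality, CYP2R1 and CYP2D14 passed the adjusted threshold (adjusted p 0.0140 and 0.0221), as did 1388 of all genes, and the median over all genes moved from -0.01 to 0.08. These counts describe the list, whose genes are not independent of each other.

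Markers of other cell types were read beside these values. All 11 measured markers of T and NK cells had a log2 fold change below 0, with a summed level of 41.1 to 408 TPM in CON and 34.1 to 122 TPM in DCLI, and so had 11 of 12 markers of Kupffer cells and macrophages, at 1938 to 8459 TPM and 1709 to 5121 TPM. Both lists were highest in control calf 2. Of 10 hepatocyte markers, 7 had a log2 fold change above 0, and in each of these lists 0 genes passed an adjusted p of 0.05. The part of these cells in the P450 values was not tested. Without control calf 2 the median log2 fold change of the 16 P450 genes was 0.20.

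**Figure D2:**
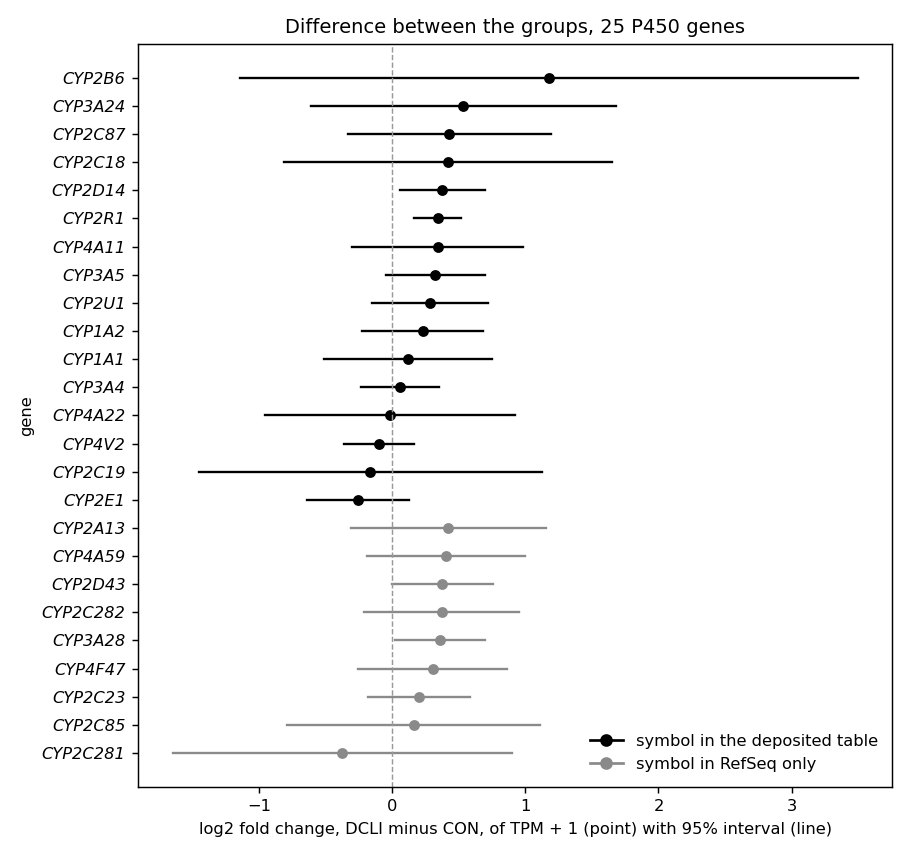
Log2 fold change of TPM + 1 (DCLI minus CON, x axis) for 25 P450 genes, with the point estimate and its 95% interval from limma. The upper 16 genes carry a P450 symbol in the deposited table and the lower 9 only in RefSeq. The interval of CYP2R1 runs from 0.16 to 0.52. Those of CYP2D14 and CYP3A28 also exclude 0, and the other intervals include it.

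CYP2R1, the vitamin D 25-hydroxylase that makes the circulating form of the vitamin, had the lowest p of the family. In CON its level was 3.27 TPM in the lowest calf, 3.77 TPM at the median and 4.60 TPM in the highest calf. In DCLI these were 4.63, 5.02 and 5.85 TPM. The groups did not overlap, but they met closely, since the highest control (4.60 TPM) was just under the lowest DCLI calf (4.63 TPM). Across all genes tested, 8 (0.0672%) had groups that did not overlap. The log2 fold change was 0.34 ± 0.08 (SE, n = 7 each), with an adjusted p of 0.365 by limma (unadjusted 0.000905). The exact rank-sum p was 0.000583, the smallest that 3432 assignments allow, and 0.545 after adjustment. CYP2R1 was also among the steadiest genes in the table, with an SD between calves of the same group of 0.11 on the log2 scale, smaller than that of all but 0.479% of genes. Its TPM is spread over 6 listed transcripts, and the most abundant of them had a log2 fold change of 0.59 ± 0.19 (SE) with an adjusted p of 0.288 over all transcripts by limma. Another tested transcript had a log2 fold change of -0.10 ± 0.32 (SE), with an adjusted p of 0.942 by limma. Transcripts other than the most abundant one held 10% to 78.8% of the gene's TPM in CON and 4.27% to 44.6% in DCLI.

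Levels of other genes of vitamin D handling were read beside it. CYP27A1, a mitochondrial sterol hydroxylase that also acts on vitamin D, had 277 ± 46.8 TPM (mean ± SD) in CON and 286 ± 23.0 TPM in DCLI, with an adjusted p of 0.901 by limma. CYP27B1, which activates vitamin D in kidney, and CYP24A1, which breaks it down, did not pass the filter and reached at most 0.41 and 0.09 TPM in any liver.

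Subfamily 2D supplied the other gene at an unadjusted p under 0.05. CYP2D14, a bovine relative of human CYP2D6, which oxidises many drugs, had 189 TPM in the lowest, 281 TPM at the median and 349.6 TPM in the highest control calf. The DCLI values were 252, 392 and 442 TPM. Of the DCLI calves 6 of 7 lay above the control median, and DCLI calf 6 was the one below it. This gave a log2 fold change of 0.38 ± 0.15 (SE), with a 95% interval from 0.06 to 0.69 and an adjusted p of 0.486 by limma. Without control calf 2, the lowest of all, it was 0.28 and the unadjusted p was no longer under 0.05.

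The 3A subfamily, the main drug-oxidising P450 group of human liver, was measured by 3 members. Over all 14 calves CYP3A5 had the highest mean of the 21 genes. In CON the mean of CYP2E1 was higher (1888 TPM against 1762 TPM). CYP3A5 had 1106, 1593 and 2914 TPM (lowest, median and highest calf) in CON and 1766, 2008 and 2581 TPM in DCLI. All 7 DCLI calves lay above the control median, but control calf 7 was higher than any of them. The log2 fold change was 0.32 ± 0.17 (SE, adjusted p 0.603 by limma). CYP3A24 had 57.5, 140.0 and 266 TPM in CON and 26.7, 249.8 and 494 TPM in DCLI. Its 2 lowest calves were DCLI calf 6 and control calf 2, and the log2 fold change of 0.53 ± 0.54 (SE) was 1.01 without DCLI calf 6 and 0.32 without DCLI calf 4, DCLI calf 5 or control calf 2. CYP3A4 was the steadiest of the 3, at 34.5 to 57.7 TPM in CON and 35.3 to 54.6 TPM in DCLI (log2 fold change 0.06 ± 0.14, 95% interval -0.23 to 0.35).

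Symbols in the deposited table do not always name the gene that RefSeq names today. RefSeq (ARS-UCD2.0) served here for names and neighbours alone, and 6 of the 21 genes carry another symbol in it. The genes listed as CYP3A5, CYP3A4, CYP2C18, CYP2C19 and CYP2J2 are CYP3A76, CYP3A74, CYP2C90, CYP2C89 and CYP2J30 there, and the one listed as CYP4F2 has no P450 symbol. Roles known for the human genes of those names may therefore not carry over. The 4 CYP3A genes neighbour each other in that annotation, as do 7 CYP2C genes, and reads from such near copies may be split unevenly, so levels of single members of these subfamilies are uncertain.

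CYP2E1, which oxidises ethanol, acetone and other small molecules, was the most abundant of the 21 genes in 4 of 7 control livers and in 0 of 7 DCLI livers, where CYP3A5 led. Its level was 1253, 1842 and 2479 TPM (lowest, median and highest calf) in CON and 1127, 1627 and 2103 TPM in DCLI. Its log2 fold change was -0.25 ± 0.18 (SE), with an adjusted p of 0.685 by limma. The ratio of CYP2E1 to CYP3A5 was 0.632, 1.23 and 1.56 in CON and 0.485, 0.749 and 0.955 in DCLI. This ratio was chosen after its values were seen and was not tested. As shares of the summed level of the 21 genes, CYP2E1 held 29.9% in CON (SD 5.22) and 22.5% in DCLI (SD 2.86). CYP3A5 held 27.4% (SD 4.39) and 31.0% (SD 4.95). This sum leaves out P450 genes that carry such a symbol only in RefSeq.

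CYP2E1 and CYP1A2 are centrilobular genes of liver in mouse and human, so zonation markers were read beside them. Of 10 other pericentral genes 8 had a log2 fold change above 0 and 0 reached an unadjusted p under 0.05, with a median log2 fold change of 0.13. Of 11 periportal genes 10 had a log2 fold change above 0 and 3 reached an unadjusted p under 0.05 (median 0.34). Over all genes tested, 48.8% had a log2 fold change above 0 and 5.7% were called higher in DCLI at an unadjusted p under 0.05. Neither list had a gene past the adjusted threshold.

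**Figure D3:**
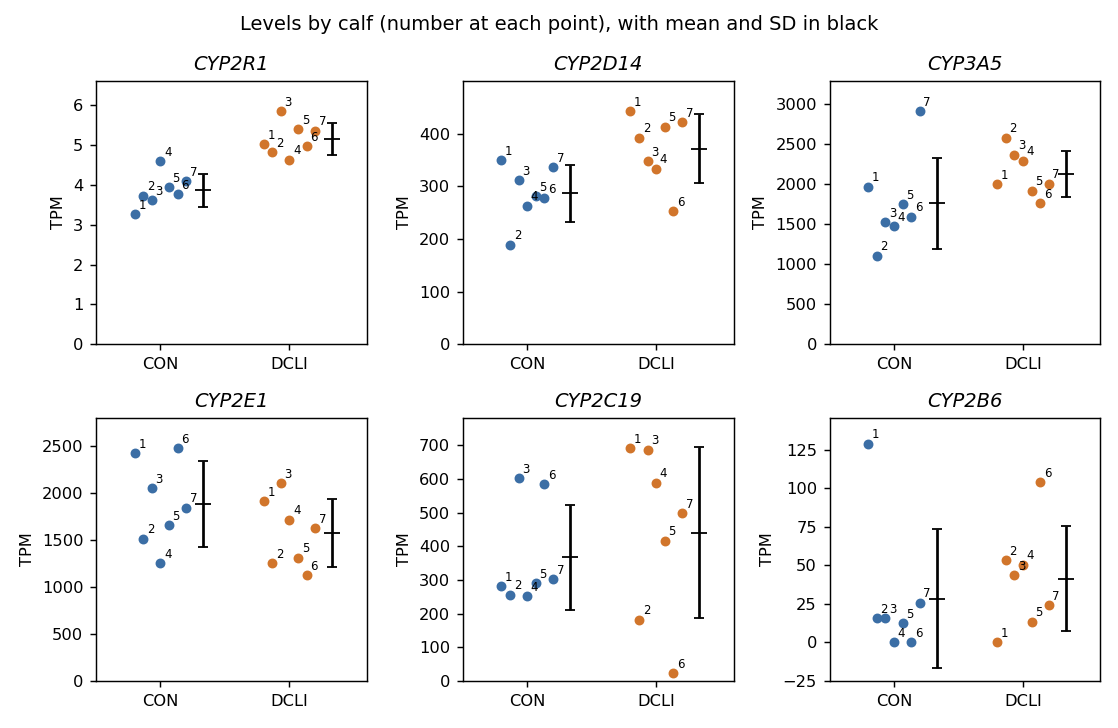
TPM of 6 P450 genes in each calf, CON and DCLI (x axis), with the calf number at each point and the mean ± SD of 7 calves in black. DCLI calf 6 is at 23.3 TPM of CYP2C19, and CYP2B6 is under 1 TPM in control calves 4 and 6 and in DCLI calf 1 (its axis starts below 0 to show the SD).

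Family 1 oxidises planar aromatic compounds. CYP1A2, expressed in liver without an inducer, had 717, 1015 and 1638 TPM (lowest, median and highest calf) in CON and 782, 1386 and 1733 TPM in DCLI. Of the DCLI calves 6 of 7 lay above the control median, and the log2 fold change was 0.23 ± 0.21 (SE, adjusted p 0.760 by limma). It was 0.13 without control calf 1, 0.35 without DCLI calf 6 and 0.05 with sample weights. CYP1A1, the family member most strongly induced through the aryl hydrocarbon receptor, had 44.9, 69.9 and 165 TPM in CON and 36.7, 91.6 and 113 TPM in DCLI, with a log2 fold change of 0.12 ± 0.30 (SE). It was -0.01 without control calf 4 and 0.31 without DCLI calf 6. CYP1B1, mostly an extrahepatic enzyme, was at 0.09 to 2.67 TPM and under the filter. Targets of the same receptor outside the family had a median log2 fold change of -0.01, with 2 of 5 tested genes above 0.

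The 2 CYP1A genes neighbour each other, and their levels were related across calves. Pearson's r between CYP1A1 and CYP1A2 on the log2 scale was 0.712 over 14 calves (permutation p 0.00479, 0.0192 after adjustment over 8 pairs of the same subfamily), and Spearman's rho was 0.653 (permutation p 0.0138). The r was 0.565 within CON and 0.946 within DCLI (n = 7 each), and 0.677 without control calf 7 and DCLI calf 6, the calves farthest from the median of CYP1A1.

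The transcript make-up of CYP1A2 was compared as well. The less abundant of its 2 listed transcripts held 1.70% to 5.26% of the gene's TPM in CON (mean 3.27%, SD 1.09) and 3.94% to 6.6% in DCLI (mean 5.22%, SD 0.869). The groups overlapped, and the exact permutation p was 0.00524, but 0.200 after adjustment over the 5614 genes whose less abundant transcripts held at least 1 TPM on average. Over the same genes 14.7% had an unadjusted p under 0.05, and 3 of the 10 P450 genes that could be tested did (CYP1A2, CYP3A5 and CYP4A11). In CYP3A5 the minor transcript held 0.735% in CON and 0.381% in DCLI (exact permutation p 0.0192, adjusted 0.253), and in CYP4A11 0.771% and 1.16% (exact permutation p 0.0332, adjusted 0.296).

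CYP2C enzymes oxidise drugs and arachidonic acid in humans, and 3 members were tested here. CYP2C19 had 253, 290.2 and 603 TPM (lowest, median and highest calf) in CON and 23.3, 498 and 692 TPM in DCLI. DCLI calf 6 stood far below every other calf, and the next lowest was DCLI calf 2 at 182 TPM. The mean was 367 TPM in CON and 441 TPM in DCLI, while the log2 fold change was -0.16 ± 0.61 (SE), so the mean and the fitted value differ in sign. Without DCLI calf 6 it was 0.45 (adjusted p 0.627 by limma). CYP2C18 had 15.1, 26.1 and 64.4 TPM in CON and 3.34, 45.0 and 113 TPM in DCLI, again with DCLI calf 6 lowest (log2 fold change 0.42 ± 0.58, SE, or 0.95 without that calf and 0.16 without DCLI calf 1). CYP2C87 had 0.38, 1.3 and 4.07 TPM in CON and 0.43, 1.4 and 7.12 TPM in DCLI (log2 fold change 0.43 ± 0.36, SE, or 0.20 without DCLI calf 1).

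CYP2C18 and CYP2C87 were the most closely related pair, with r = 0.848 over 14 calves (permutation p 0.00014, 0.00112 after adjustment over the 8 pairs) and rho = 0.934 (permutation p 1e-05, the smallest that 100000 resamples can give). The r was 0.833 within CON, 0.867 within DCLI and 0.882 without DCLI calves 1 and 6. The pair CYP2C18 and CYP2C19 had r = 0.735 (permutation p 0.00808, adjusted 0.0215, rho = 0.538 with permutation p 0.0498), but the relation rested on those 2 calves: r was 0.206 without them, -0.172 within CON and 0.910 within DCLI. These CYP2C genes neighbour each other, and the part of unevenly split reads in these relations was not tested. The remaining 5 pairs had an adjusted permutation p of 0.132 or more. Among them, CYP3A24 and CYP3A5 had r = 0.483 (permutation p 0.0814, rho = 0.512 with permutation p 0.0655), with 0.919 within CON and 0.223 within DCLI.

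CYP2B6, a classical target of CAR in human liver, was the most variable P450 gene, with an SD between calves of the same group of 2.34 on the log2 scale. Its level was under 1 TPM in 3 calves and between 12.5 and 129 TPM in the other 11, with no calf in between. The 3 were control calf 4 (0.24 TPM), control calf 6 (listed at 0) and DCLI calf 1 (0.05 TPM), and both of its listed transcripts were near 0 in each of them. The highest levels were 129 TPM in control calf 1 and 104 TPM in DCLI calf 6. The medians were 15.6 TPM in CON and 43.7 TPM in DCLI, and the log2 fold change of 1.18 ± 1.09 (SE) had a 95% interval from -1.14 to 3.50. It was 0.61 without control calf 6, 0.66 without control calf 4 and 1.94 without DCLI calf 1. NR1I3, which encodes CAR, had 66.4 to 140.2 TPM in CON and 66.7 to 139 TPM in DCLI, so its mRNA was present in every liver.

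Family 4 adds a hydroxyl group to the far end of fatty acids. CYP4A11 had 235, 359 and 1245 TPM (lowest, median and highest calf) in CON and 344, 572 and 781 TPM in DCLI. Control calf 7 was higher than any other calf, while 6 of 7 DCLI calves lay above the control median. The log2 fold change was 0.34 ± 0.30 (SE, adjusted p 0.749 by limma), or 0.60 without control calf 7 and 0.20 without control calf 6. CYP4A22 was far less abundant, at 1.88, 4.55 and 31.9 TPM in CON and 2.40, 4.70 and 8.10 TPM in DCLI. Control calf 5 alone held 31.9 TPM, with the next control at 6.90 TPM. Its log2 fold change of -0.01 ± 0.44 (SE) was 0.39 without that calf. CYP4V2, a fatty acid hydroxylase mutated in human Bietti crystalline dystrophy, was steady, at 79.0 to 104 TPM in CON and 60.9 to 108 TPM in DCLI (log2 fold change -0.10 ± 0.12, SE, 95% interval -0.36 to 0.16).

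Of 10 other targets of PPARA, 10 had a log2 fold change above 0, although the mean TPM of VNN1 was slightly smaller in DCLI (75.5 TPM in CON and 74.8 TPM in DCLI), and 4 of them reached an unadjusted p under 0.05, with 0 past the adjusted threshold. The median log2 fold change was 0.55. Over all genes tested, 48.8% had a log2 fold change above 0 and 5.7% were called in this direction. The lowest p was that of CPT1A, which admits fatty acids to mitochondria, at 97.6 ± 25.3 TPM (mean ± SD) in CON and 135 ± 18.7 TPM in DCLI. PPARA itself had 34.6 and 40.7 TPM (log2 fold change 0.24 ± 0.14, SE, adjusted p 0.623 by limma).

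CYP2U1, a hydroxylase of long-chain fatty acids in humans, had 5.01, 8.13 and 12.4 TPM (lowest, median and highest calf) in CON and 5.22, 11.1 and 14.8 TPM in DCLI. Its log2 fold change was 0.29 ± 0.20 (SE, adjusted p 0.687 by limma), or 0.43 without DCLI calf 6 and 0.18 without control calf 2. The 5 genes under the filter were CYP2J2, CYP1B1, CYP4F2, CYP4B1 and CYP2S1, none above 2.67 TPM. CYP2J2, an arachidonic acid epoxygenase in humans, reached 1 TPM in 5 libraries and had 0.67 ± 0.299 TPM (mean ± SD) in CON and 1.24 ± 0.397 TPM in DCLI. CYP4B1, mainly a lung enzyme, had at most 0.34 TPM in CON and was at 0 to 1.51 TPM in DCLI. CYP2S1, also mainly extrahepatic, had 0.554 ± 0.335 TPM (mean ± SD) in CON and 0.271 ± 0.122 TPM in DCLI. CYP4F2 had 0.25 to 1.24 TPM over all calves. With no filter, CYP2J2, CYP4B1 and CYP2S1 had unadjusted p of 0.00891, 0.00867 and 0.0360 by limma, and adjusted p of 0.500, 0.496 and 0.607.

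A further 14 genes carry a P450 symbol of these families only in RefSeq, and the deposited table lists them under other symbols, most under locus numbers. Of these 9 passed the filter, and several were abundant. CYP2C23 had 1060.4, 1395 and 2079 TPM (lowest, median and highest calf) in CON and 1098, 1740.2 and 1895 TPM in DCLI, so that its mean lay between those of CYP2E1 and CYP1A2. CYP2A13 had 109.9, 535 and 849 TPM in CON and 399.6, 597 and 842 TPM in DCLI, with control calf 2 lowest. CYP3A28, listed in the table under gene-CYP3A5, had 217, 319.8 and 469 TPM in CON and 375, 412 and 487 TPM in DCLI. All 7 DCLI calves lay above the control median of CYP3A28, and its log2 fold change was 0.36 ± 0.16 (SE, adjusted p 0.541 by limma, unadjusted 0.0387).

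The remaining RefSeq-only genes past the filter were CYP2D43, CYP4A59, CYP4F47, CYP2C85, CYP2C281 and CYP2C282. CYP2D43, the neighbour of CYP2D14, had 264 ± 70.2 TPM (mean ± SD) in CON and 335 ± 55.3 TPM in DCLI, a log2 fold change of 0.38 ± 0.18 (SE, adjusted p 0.567 by limma). CYP4A59 had 156, 201 and 500.4 TPM (lowest, median and highest calf) in CON and 146, 316 and 481 TPM in DCLI (log2 fold change 0.40 ± 0.28, SE). CYP4F47 had 24.3, 43.6 and 68.8 TPM in CON and 21.3, 54.0 and 85.9 TPM in DCLI (log2 fold change 0.31 ± 0.26, SE). The groups overlapped for both genes. CYP2C85 had 15.7, 28.6 and 54.1 TPM in CON and 5.87, 48.3 and 61.2 TPM in DCLI, with DCLI calf 6 lowest (log2 fold change 0.16 ± 0.45, SE). CYP2C282 was low, at 0.89 to 1.37 TPM in CON and 0.11 to 4.25 TPM in DCLI (log2 fold change 0.37 ± 0.27, SE). CYP2C281 was at 6.32 to 64.9 TPM in 13 calves and at 169.8 TPM in DCLI calf 1. That calf was the 1 of 7 DCLI calves above the control median of 33.6 TPM. The log2 fold change of CYP2C281 was -0.37 ± 0.60 (SE), the lowest of the 25 tested genes. CYP2C88, CYP4F22, CYP2F1, CYP4X1 and CYP2W1 lay under the filter and did not exceed 1.59 TPM. With these genes the family held 9326 ± 2160 TPM (mean ± SD) in CON and 10500.5 ± 1461 TPM in DCLI. Of the 25 tested genes 20 had a log2 fold change above 0 (median 0.32), beside 48.8% of all genes. At an unadjusted p under 0.05, 3 were higher in DCLI, beside 5.7% of all genes, and 0 passed the adjusted threshold.

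The abundant P450 genes had a larger median SD between calves than all genes above the same floor, without matching by level. Among genes with a mean of at least 5 on the log2(TPM + 1) scale, the median SD within groups was 0.43 for 11 P450 genes and 0.25 for all 2516 genes. CYP2B6, CYP2C19, CYP2C18 and CYP3A24 had the largest SD of the 16, at percentiles 100, 99.5, 99.4 and 99.2 of all genes tested. CYP4V2 lay at percentile 39.1 and CYP3A4 at 53.6. Single calves stood out in this spread. DCLI calf 6 was the lowest of its group for 12 of 16 P450 genes, beside 29.2% of all genes, and the highest for 1, CYP2B6. Control calf 7 was the highest control for 6 of 16, beside 12.6% of all genes, and control calf 2 the lowest for 6 of 16, beside 9.21%.

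**Figure D4:**
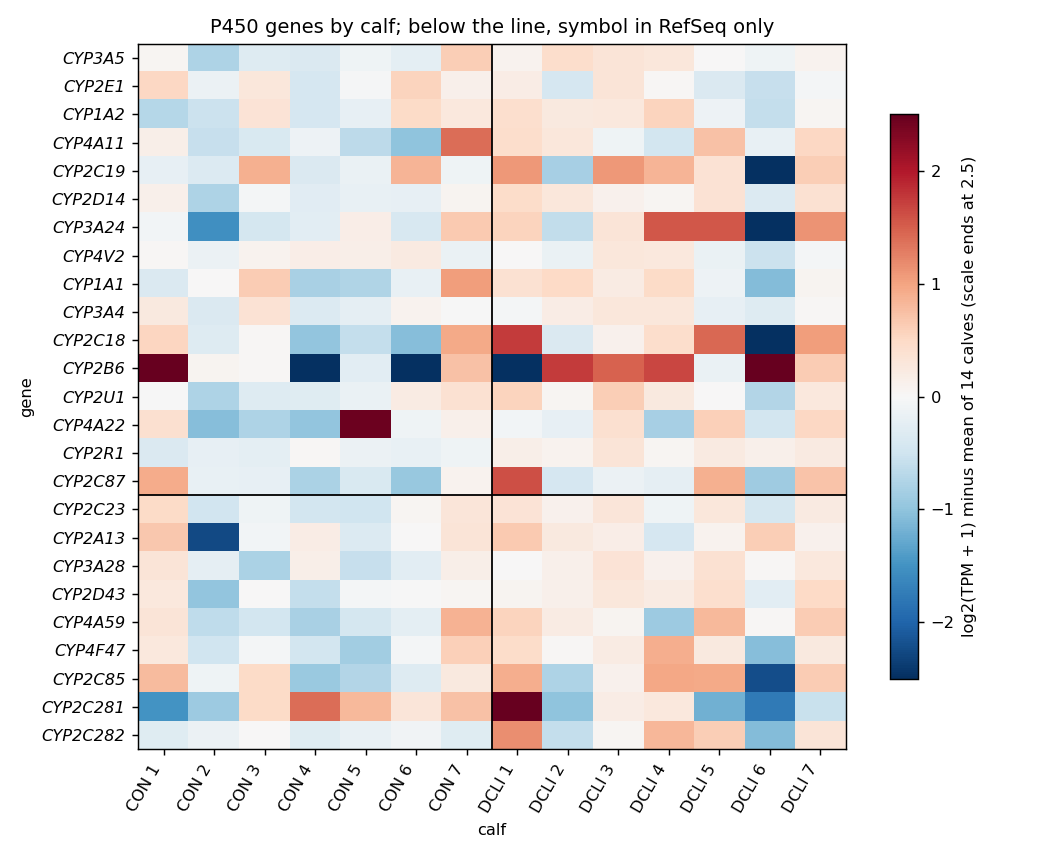
Level of 25 P450 genes (rows) in each calf (columns), as log2(TPM + 1) minus the mean of 14 calves, with the colour scale ending at 2.5 to either side. DCLI calf 6 is low for CYP2C19, CYP3A24, CYP2C18 and CYP2C85, and CYP2B6 is low in control calves 4 and 6 and DCLI calf 1.

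Without control calf 2 and DCLI calf 6 together, a choice made after the data were seen, the median log2 fold change of the 16 genes was 0.33, with 5 genes at an unadjusted p under 0.05, among 1227 of all 11905 genes, and 0 past the adjusted threshold. These 5 were CYP2R1, CYP2D14, CYP3A24, CYP2C18 and CYP2U1, with log2 fold changes of 0.34, 0.37, 0.80, 0.93 and 0.32.

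DCLI calf 6 also had the highest level of HP, the gene of the acute phase protein haptoglobin, at 29341 TPM. HP ranged from 46.6 to 21479.7 TPM in CON (median 5311 TPM) and from 138 to 29341 TPM in DCLI (median 901 TPM), so calves with high and low levels were present in both groups. The relation to HP was tested for 25 P450 genes. Across 14 calves the slope on HP was below 0 for 13 of the 16 P450 genes, beside 83.0% of all genes. At an unadjusted p under 0.05 by limma it was negative for 4 of 16, beside 24.6% of all genes, and 0 of 16 passed an adjusted p of 0.05, beside 3.45% called with a negative and 0.689% with a positive slope.

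The lowest adjusted p was that of CYP4A11, at 0.0823 by limma over all genes. Pearson's r of CYP4A11 with HP was -0.631 over 14 calves (permutation p 0.0147) and rho was -0.666 (permutation p 0.0111). The r was -0.633 within CON, -0.724 within DCLI and -0.668 without control calf 1 and DCLI calf 5, the 2 calves farthest from the median HP. CYP2C18 had r = -0.569 (permutation p 0.0299, rho = -0.657 with permutation p 0.0119, adjusted p 0.115 by limma), with -0.871 within CON and -0.481 within DCLI, and -0.521 without the 2 calves. CYP2C87 had r = -0.559 (permutation p 0.0378, rho = -0.701 with permutation p 0.00659, adjusted p 0.125 by limma), with -0.929 within CON and -0.317 within DCLI. Without the 2 calves its r was -0.338, so that relation rested partly on them.

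CYP2D14 had r = -0.520 (permutation p 0.0560, rho = -0.644 with permutation p 0.0150, adjusted p 0.172 by limma), with -0.599 within CON, -0.607 within DCLI and -0.482 without the 2 calves. CYP1A2 had r = 0.126 (permutation p 0.664, rho = 0.0989 with permutation p 0.738), and r was -0.302 without the 2 calves. CYP2R1 had r = 0.00788 (permutation p 0.979, rho = -0.0286 with permutation p 0.928), and r was -0.231 without them. The r of CYP2R1 was 0.615 within CON and -0.618 within DCLI. Outside the 16, CYP2C23 had r = -0.760 (permutation p 0.00249, rho = -0.710 with permutation p 0.0061), with -0.862 within CON, -0.675 within DCLI and -0.678 without the 2 calves. Its adjusted p over all genes was 0.0429 by limma. That made it 1 of 25 P450 genes past the threshold, beside 3.45% of all genes called with a negative slope. CYP4A59 had r = -0.698 (permutation p 0.00734, rho = -0.732 with permutation p 0.00432) and an adjusted p of 0.0508 by limma. At an unadjusted p under 0.05 by limma the slope was negative for 9 of 25, beside 24.6% of all genes.

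**Figure D5:**
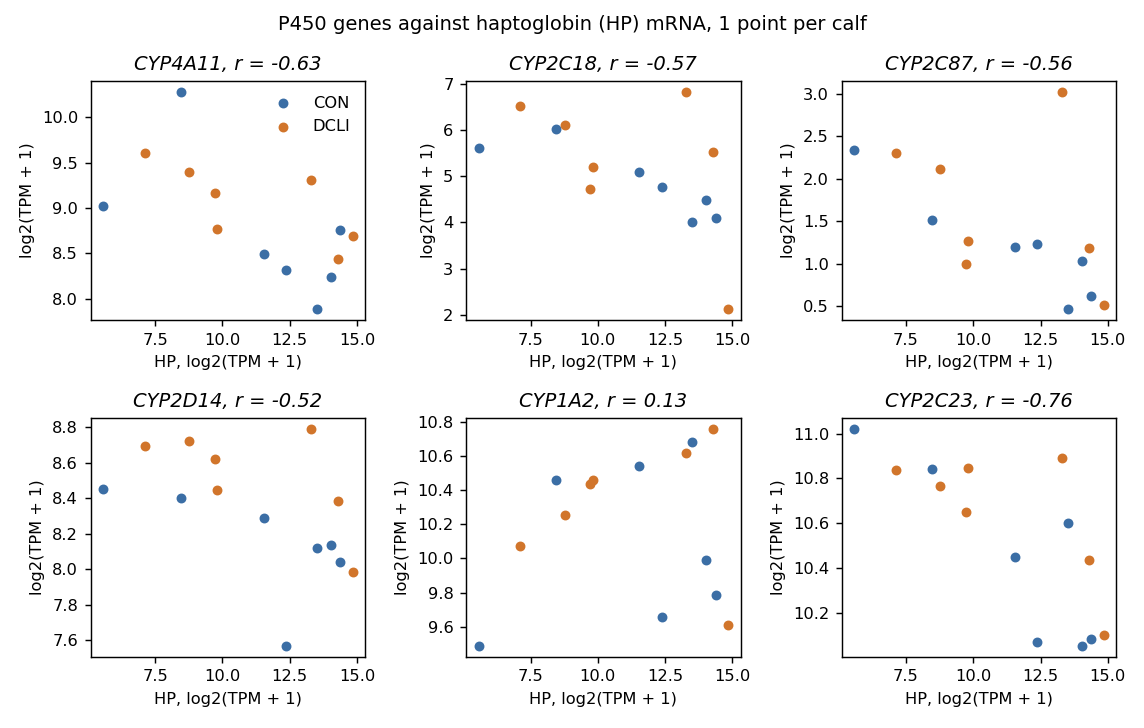
Level of 6 P450 genes (y axis) against that of haptoglobin, HP (x axis), both as log2(TPM + 1), 1 point per calf (CON blue, DCLI orange), with Pearson's r over 14 calves in each title. The r is -0.63 for CYP4A11, -0.76 for CYP2C23 and 0.13 for CYP1A2.

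Genes that serve the P450 enzymes gave the following values. POR, which passes electrons from NADPH to them, had 80.0, 109 and 139 TPM (lowest, median and highest calf) in CON and 78.5, 158 and 194 TPM in DCLI, a log2 fold change of 0.39 ± 0.18 (SE, adjusted p 0.562 by limma). Of its list of 7 electron partners 4 had a log2 fold change above 0 (median 0.02). CYB5A, microsomal cytochrome b5 and the most abundant of them, had 808 ± 158 TPM (mean ± SD) in CON and 765 ± 222 TPM in DCLI. Genes of haem synthesis and breakdown were divided, 6 to each side. At an unadjusted p under 0.05, 3 of 12 were higher in DCLI, beside 5.7% of all genes, and 0 passed the adjusted threshold. FECH, which inserts iron into haem, had 19.7 ± 2.24 TPM (mean ± SD) in CON and 26.0 ± 3.61 TPM in DCLI, and CPOX, an earlier enzyme of the path, 26.6 ± 6.59 TPM and 37.6 ± 6.47 TPM. Their log2 fold changes were 0.38 ± 0.11 and 0.50 ± 0.15 (SE), with adjusted p of 0.402 and 0.409 by limma.

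Of 15 receptors and factors that control P450 genes 13 had a log2 fold change above 0 (median 0.18), beside 48.8% of all genes. At an unadjusted p under 0.05, 4 were higher in DCLI, beside 5.7% of all genes, and 0 passed the adjusted threshold. NR1I2, the pregnane X receptor, had the lowest p, at 32.4, 47.9 and 75.0 TPM (lowest, median and highest calf) in CON and 52.2, 80.2 and 89.7 TPM in DCLI. Its groups overlapped, and the adjusted p was 0.409 by limma. HNF4A, the most abundant of the list, was at 128 TPM in CON and 130.3 TPM in DCLI (log2 fold change 0.02 ± 0.14, SE).

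Other oxidising enzymes of drug metabolism had 11 of 16 log2 fold changes above 0, beside 48.8% of all genes. At an unadjusted p under 0.05 by limma 1 was higher in DCLI, beside 5.7% of all genes, and 0 passed the adjusted threshold. The 1 was MAOA, a monoamine oxidase (2.25 TPM in CON with SD 0.633 and 2.87 TPM in DCLI with SD 0.360). ADH4, an alcohol dehydrogenase, had the highest mean of the list over all 14 calves, with 1027 TPM in CON and 966 TPM in DCLI. Of P450 genes of other families 10 of 16 passed the filter, 7 with a log2 fold change above 0, beside 48.8% of all genes. At an unadjusted p under 0.05 there were 0 of them, beside 5.7% of all genes higher and 3.19% lower in DCLI. CYP27A1 was the most abundant of them. CYP11A1, the side-chain cleavage enzyme of steroid hormone synthesis, was present at 60.2 to 234 TPM in CON and 50.4 to 173 TPM in DCLI, while CYP17A1 and CYP19A1, later enzymes of that synthesis, did not exceed 0.06 TPM.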

How the data were processed

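Poly(A)-selected RNA-seq libraries of 14 calf livers (CON 7, DCLI 7) were used. The deposited values are TPM per transcript; reads were filtered with SOAPnuke 1.5.6 and RSEM 1.3.1 is named beside it, per the submitters' processing notes. No aligner or genome build is named (not given in the sources used here). For that reason, no coordinates are printed. TPM keeps no depth, and no counting interval can be given.

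TPM of 49721 transcripts was summed to 17469 genes by gene ID. Symbols were compared with RefSeq (ARS-UCD2.0), where 98.8% of gene IDs matched. The 11905 genes that reached 1 TPM in 7 or more libraries were tested on log2(TPM + 1) with limma 3.58.1 in R 4.3.3 (mean-variance trend, two-sided, no covariate, Benjamini-Hochberg over all genes). Fold changes on this scale understate changes of low genes. The fit was also run on simulated data, with results that are not reported here. Labels do not say that the calves were independent beyond being separate animals. The p-values set group differences and relations against the spread between these libraries, and take the calves as independent.

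Correlations used two-sided permutation tests with 100000 resamples. For relations to HP, adjustment was made over all genes with a limma slope, in place of the planned adjustment over the P450 genes. Shares of transcripts were compared with exact two-sided permutation tests.

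All P450 genes are named, those past the filter with their levels; from the other lists, the most abundant gene and those of lowest p are named. Some single genes of these lists are not reported here. The members and lists were chosen with earlier results of these data known. Replicate numbers were not taken as pairs (correlations of same-numbered calves -0.18 to 0.45), although these values cannot exclude pairing. The alternatives were other pseudocounts, filters and scalings, a replicate block, sample weights, a rank-sum test, transcripts in place of genes and leaving out each calf.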

Additional observations from a re-analysis of the deposited data

Results flagged for a closer look

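Each group of 7 values of the 16 tested P450 genes and of HP was checked on the log2 scale for a calf set apart from the rest of its group, in 34 groups of values. A calf was noted where its gap to the nearest other calf, divided by the range of the group, exceeded 0.568 (Dixon's criterion for 7 values), which chance alone passes in about 1 in 20 groups. There were 4 such values.

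CYP1A1 in DCLI calf 6 was at 36.74 TPM, with a gap of 0.609 of the range. CYP2C19 in the same calf was at 23.26 TPM, with a gap of 0.602. CYP2B6 in DCLI calf 1 was at 0.05 TPM, with a gap of 0.569. CYP4A22 in control calf 5 was at 31.91 TPM, with a gap of 0.586. The first 3 were low and the last was high.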

How the results depend on the processing

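The count of P450 genes past an adjusted p of 0.05 was 0 under each alternative except sample weights, which gave 2. The count at an unadjusted p under 0.05 was 2. It became 5 with no filter (among 1367 of 17469 genes) and 1 with a filter of a mean of at least 5 TPM (811 of 8232). With sample weights it was 9 (3516 of 11905), and by the exact rank-sum test 1 (821 of 11905). Without control calf 2 and DCLI calf 6 together, an alternative chosen after seeing the data, it was 5 (1227 of 11905). Leaving out 1 calf at a time gave 1 (without control calf 2, among 925 of 11905 genes) to 5 (without DCLI calf 6, among 1298), and 4 without control calf 7 (among 1598), when 12 of all genes passed the adjusted threshold. The median log2 fold change (0.30) stayed between 0.19 and 0.38 when single calves were left out. The count of P450 genes related to HP was 0 to 2 in the same exercise, with 2 without DCLI calf 1. These were CYP2C87 and CYP2C18, with adjusted p of 0.00637 and 0.038 by limma. The share of all genes called without that calf is not reported here, so the 2 cannot be set against it.

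The log2 fold change of CYP4A22 (-0.01) turned to 0.038 with a pseudocount of 0.1, 0.013 with quantile normalization, 0.013 when rescaled without the 20 most abundant genes and 0.36 with sample weights, and ran from -0.19 to 0.39 without single calves. That of CYP2C19 (-0.16) turned to 0.15 with sample weights and 0.38 without control calf 2 and DCLI calf 6, and ran from -0.36 to 0.45 without single calves. That of CYP1A1 (0.12) ran from -0.0051 (without control calf 4) to 0.31. The causes were not tested.

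With the replicate number as a block, 0 P450 genes and 1 of all genes passed the adjusted threshold. At an unadjusted p under 0.05 there were 3 P450 genes, among 1267 of all genes (1058 in the main fit). The median stayed at 0.30. Same-numbered calves matched each other best for 2 of 7 control and 3 of 7 DCLI calves. The numbers were not taken as pairs, but these matches cannot exclude a shared block. Depth is unknown and its limits could not be set.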

Other observations

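Further marker lists were read in the same livers, and 0 genes passed an adjusted p of 0.05 by limma in any of them. Of 13 acute phase genes of cattle 9 had a log2 fold change above 0 (median 0.06), and their summed level was highest in DCLI calf 6. All 5 tested neutrophil markers had a log2 fold change below 0 (median -0.35), with MMP9 near 0. Of 6 tested cholangiocyte markers 4 had a log2 fold change below 0 (median -0.49). At an unadjusted p under 0.05, 3 were lower in DCLI, beside 3.19% of all genes. Of 10 stellate cell and matrix markers 7 had a log2 fold change below 0 (median -0.07), as had 5 of 9 tested endothelial markers (median -0.05). Of 7 blood cell markers 2 passed the filter, and the erythroid genes HBM, ALAS2 and SLC4A1 were near 0.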
